A study of Homo sapiens with 40 samples.

Results

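KARPAS-45 was compared with HPB-ALL. Both are human cell lines of T-ALL, the acute leukaemia of T-cell precursors. The comparison uses 8 libraries, 4 per line, out of 24 libraries of 6 untreated lines and 40 in the whole series. The lines were chosen by their medium: per the labels, only KARPAS-45 and HPB-ALL were grown with 20% serum and the others with 10%, so the amount of serum does not differ between them. No agent or virus was given to either line, and the RNA is described as polyadenylated. The series concerns QKI (quaking), an RNA-binding protein that controls splicing and RNA stability, and its untreated lines address how cells with different amounts of QKI differ. Each group is 1 cell line, so genotype, donor, culture history and any difference in library preparation cannot be told apart in any difference below. Nothing in the labels says that the 4 replicates came from separate cultures. The p-values therefore measure only the spread between these libraries, which may be technical.

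T cells mature in the thymus in ordered steps. Early precursors express stem-cell genes and rearrange the genes of the T-cell receptor (TCR) with the RAG enzymes under NOTCH and interleukin 7 signals. They then pass a cortical stage marked by CD1 molecules and by CD4 together with CD8. T-ALL arrests cells along this path, and its subtypes are named for the transcription factor they switch on. HPB-ALL is known as a line of the TLX3 subtype, in which a homeobox factor foreign to T cells is expressed. KARPAS-45 is known for a fusion of KMT2A, a histone methyltransferase, with the transcription factor FOXO4.

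The deposited values are read counts per gene. Levels are given as CPM, counts per 1e6 counted reads after TMM scaling, with mean ± SD over n = 4 libraries. CPM are not divided by gene length, so levels are compared between lines and not between genes. Fold changes are KARPAS-45 over HPB-ALL, from edgeR's quasi-likelihood test fitted on the 24 libraries. A gene was called at a Benjamini-Hochberg adjusted p under 0.05. SE here is the absolute log2 fold change divided by the square root of the test's F statistic, not a fitted standard error. In genes near 0 counts in a line, such as SATB1 and SKIDA1, it can be smaller than the counting error alone. Whether reads were counted by strand is not stated, and 53 of the 243 genes named here overlap another expressed gene in GENCODE 29, so part of their counts may be its reads. Among those given library by library these are BCL2L11, CCR9, CDKN2A, DDIT3, HLA-B, HOXA5, KMT2A, MBNL1, MCM2, MEST, SATB1, SKIDA1 and TLX3. A bulk value cannot tell a change in the share of cells from a change in RNA per cell.

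The KARPAS-45 libraries held 75.6 to 84.0 M counts (M, 1e6) and the HPB-ALL libraries 45.9 to 53.8 M. Libraries of both lines stand apart. In KARPAS-45 the mitochondrially encoded RNAs took 0.671% to 1.428% of the counts, against 3.776% to 5.614% in HPB-ALL. Libraries of the other 4 lines held 44.1 to 64.8 M counts, with 5.509% to 9.491% mitochondrial. KARPAS-45 thus lay outside all other lines in both depth and mitochondrial share. The ratio of KARPAS-45 to HPB-ALL also moved with the transcript. Over 5 equal groups of genes from the shortest to the longest transcripts, the median log2 ratio was -0.13, 0.22, 0.35, 0.44 and 0.57. Over 5 groups from the lowest to the highest GC content it was 0.61, 0.55, 0.26, 0.09 and -0.17. The same medians of the other 4 lines against HPB-ALL lay between -0.15 and 0.23. The labels do not say how these libraries were prepared, and the part of RNA quality or preparation in these trends was not tested. An offset fit, chosen after the trends were seen, takes each library's length and GC trend out, and fold changes printed here that it moves by over 1.5 times, and printed list counts it moves by as much, are given with both values. In HPB-ALL, library 4 differed from the others. Its rank correlations with them were 0.9734 to 0.9841, against 0.9896 to 0.9948 among libraries 1 to 3 and 0.9951 to 0.9959 among the KARPAS-45 libraries. Printed fold changes and list counts that library 4 moves by as much are given without it too.

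**Figure D1:**
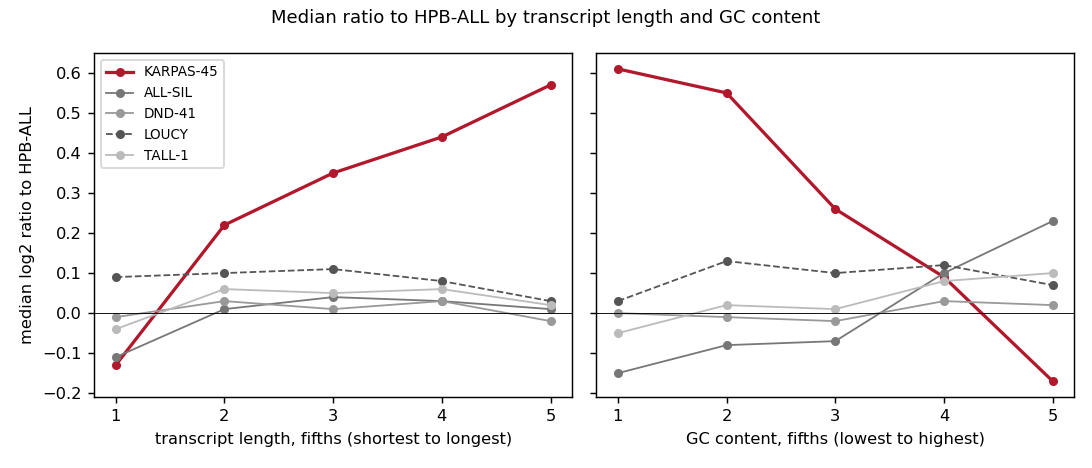
Median log2 ratio of mean CPM to HPB-ALL, over 5 equal groups of genes by transcript length (left) and by GC content (right), for KARPAS-45 (red) and the other 4 lines (grey; LOUCY dashed). The KARPAS-45 line rises from -0.13 to 0.57 with length and falls from 0.61 to -0.17 with GC content, while the grey lines stay between -0.15 and 0.23.

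Between these lines 76.2% of the 20348 genes tested were called, 6986 (34.3%) higher in KARPAS-45 and 8515 (41.8%) lower. With calls this common, gene groups are read by a stricter rule, a call with a change of at least 2-fold. It took in 4498 genes (22.1%) higher in KARPAS-45 and 6639 (32.6%) lower, the shares to hold each group's counts against. "At least 2-fold" below always includes the call. The median log2 fold change over all genes tested was -0.17. It was 0.00 in the offset fit, which keeps TMM scaling and takes out the length and GC trends. That fit found 4639 genes at least 2-fold higher and 5188 lower among 19243. In the fit without offsets protein-coding genes had a median of 0.12, long intergenic RNA genes -1.14, antisense genes -1.04 and processed pseudogenes -1.06. How far the length and GC trends enter these medians was not tested. In 14389 genes (70.7%) every library of one line lay beyond every library of the other.

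Among the 15 pairs of the 6 lines this pair had the most genes at least 2-fold apart, 11137. The other 4 pairs with KARPAS-45 had 10316 to 10892, and the 10 pairs without it 5972 to 8963. By rank correlation of mean levels this pair, at 0.814, was not the furthest apart. KARPAS-45 with LOUCY had 0.8, ALL-SIL with LOUCY 0.812 and LOUCY with TALL-1 0.813. The pairs were not counted with the length and GC offsets. They share libraries and were not tested against each other.

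**Figure D2:**
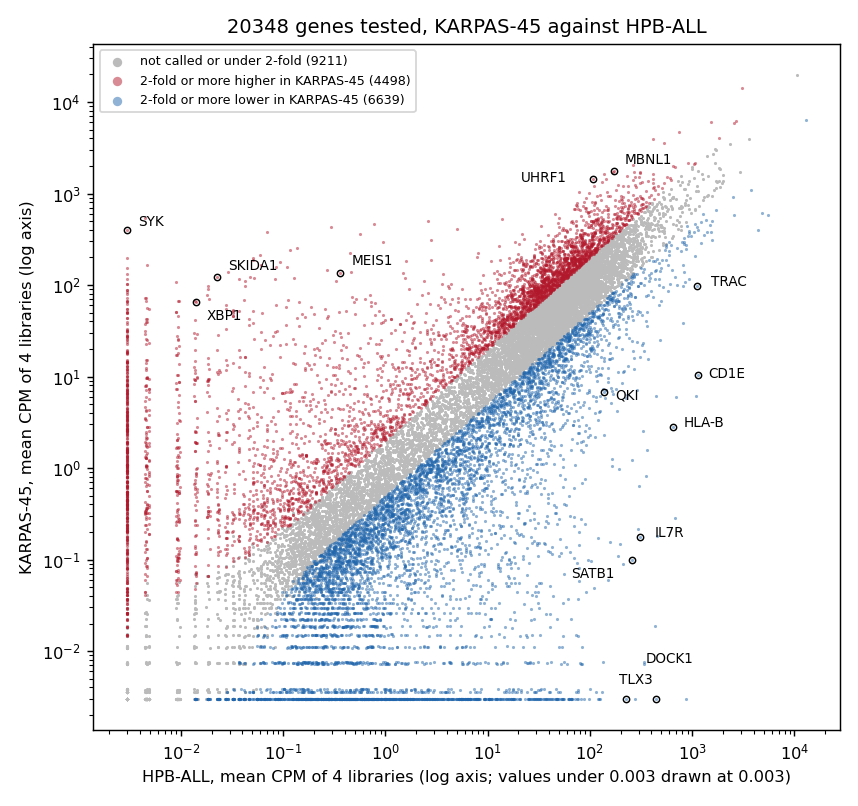
Mean CPM in KARPAS-45 (vertical) and HPB-ALL (horizontal) of the 20348 genes tested, both log axes, with values under 0.003 drawn at 0.003. The 4498 genes at least 2-fold higher in KARPAS-45 are red, the 6639 lower ones blue and the rest grey, and 14 genes described in the text are circled; SYK lies on the left edge and TLX3 and DOCK1 on the lower edge, at 0 counts in one line.

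Both lines carried RNA of T-cell genes, but CD2, CD5, CD3D, TRAC and TRBC2, described below, were lower in KARPAS-45. HPB-ALL also expressed the factor it is known by. TLX3, the homeobox factor of its subtype, had 0 counts in all 4 KARPAS-45 libraries, against 288.8, 232.1, 230.9 and 146.3 CPM in the HPB-ALL libraries. No KARPAS-45 library held a TLX3 read (at least 5057.2-fold lower in KARPAS-45, adjusted p = 5.32e-14). CD3E, a signalling chain of the TCR complex, had 348.5, 382.7, 347.2 and 406.1 CPM in the KARPAS-45 libraries, against 1002.5, 799.4, 772.6 and 1123.8 CPM in the HPB-ALL libraries. All 8 libraries expressed CD3E, and every KARPAS-45 library lay below every HPB-ALL library (log2 fold change -1.32, SE 0.13, adjusted p = 1.84e-09). CD247, the zeta chain, averaged 216.2 ± 12 CPM in KARPAS-45 and 228.7 ± 27.1 in HPB-ALL and was not called (adjusted p = 0.62). LCK, the kinase that starts TCR signalling, had 830.2, 843.1, 817.3 and 730.2 CPM in the KARPAS-45 libraries, against 439.6, 366.4, 351.8 and 266.1 CPM in the HPB-ALL libraries. The LCK groups did not overlap, KARPAS-45 being the higher (log2 fold change 1.18, SE 0.15, adjusted p = 1.57e-07).

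The lines expressed different TCR variable segments. TRBV20-1, a segment of the beta chain, had 524.0, 268.1, 653.2 and 708.1 CPM in the KARPAS-45 libraries, against 0.0178, 0, 0 and 0 CPM in the HPB-ALL libraries. KARPAS-45 also expressed TRBV5-1 (72.5 CPM in KARPAS-45, 0.00456 in HPB-ALL), the alpha segment TRAV8-2 (79.5 CPM in KARPAS-45, 0 in HPB-ALL) and the gamma segment TRGV10 (198.4 CPM in KARPAS-45, 0 in HPB-ALL). HPB-ALL was led by the beta segment TRBV5-5, with 0 counts in all 4 KARPAS-45 libraries, against 999.2, 863.7, 842.2 and 762.2 CPM in the HPB-ALL libraries. It further expressed TRBV7-3 (0.0893 CPM in KARPAS-45, 208.5 in HPB-ALL), the alpha segments TRAV19 (0.00763 CPM in KARPAS-45, 337.9 in HPB-ALL) and TRAV5 (0.0593 CPM in KARPAS-45, 149.0 in HPB-ALL), and the gamma segment TRGV3 (2.32 CPM in KARPAS-45, 135.8 in HPB-ALL). TRAC, the constant gene of the alpha chain, averaged 97.7 ± 3.93 CPM in KARPAS-45 and 1108.8 ± 166.2 in HPB-ALL (log2 fold change -3.50, SE 0.23, adjusted p = 1.06e-12). In the offset fit its log2 fold change was -2.63 (adjusted p = 2.26e-10). TRBC2, of the beta chain, averaged 585.1 ± 161.5 CPM in KARPAS-45 and 2589.8 ± 643.3 in HPB-ALL (log2 fold change -2.15, SE 0.19, adjusted p = 2.05e-10), with -1.07 (adjusted p = 5.08e-07) in the offset fit. TRGC2, of the gamma chain, averaged 345.3 ± 15.5 CPM in KARPAS-45 and 294.6 ± 116.6 in HPB-ALL and was not called, but it was in the offset fit, at 0.90 (adjusted p = 0.00127). TRDC, of the delta chain, held at most 1 count in any of the 8 libraries. TCR segments share long stretches of sequence, so how reads were split among them is uncertain.

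The most complete differences were genes on in one line and silent in the other. In KARPAS-45, 8777 genes averaged at least 10 CPM, and 142 of them held at most 3 counts in every HPB-ALL library. In HPB-ALL 9288 genes averaged at least 10 CPM, and 209 of them held at most 3 counts in every KARPAS-45 library. SYK, a tyrosine kinase of antigen receptor signalling, led the first set with 419.8, 356.3, 410.9 and 414.2 CPM in the KARPAS-45 libraries, against 0 counts in all 4 HPB-ALL libraries. It was at least 7163.0-fold higher in KARPAS-45, with the HPB-ALL libraries set at a floor of 3 counts each. The rankings by fold leave out receptor segments and genes without an ordinary symbol, such as unnamed, long intergenic and antisense genes. Next in that set were TMEM106B, a lysosomal membrane gene (155.0 CPM in KARPAS-45), the gap junction gene GJA3 (131.1 CPM in KARPAS-45) and the zinc-finger factor PRDM16 (115.4 CPM in KARPAS-45). BEND4 (102.7 CPM in KARPAS-45), PDLIM1 (101.5 CPM in KARPAS-45), the transporter XK (89.1 CPM in KARPAS-45) and the B-lineage kinase BLK (88.6 CPM in KARPAS-45) followed. The proline synthesis enzyme PYCR1 (84.6 CPM in KARPAS-45), the retinoic acid carrier CRABP1 (72.3 CPM in KARPAS-45), ZNF354C (67.6 CPM in KARPAS-45) and PALM (67.1 CPM in KARPAS-45) completed the first 12. All 12 held 0 counts in HPB-ALL.

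Receptor segments aside, DOCK1, an activator of the RAC GTPase, headed the second set with 0 counts in all 4 KARPAS-45 libraries, against 417.8, 486.2, 544.7 and 329.6 CPM in the HPB-ALL libraries. CR2, the complement receptor CD21, had 0 counts in all 4 KARPAS-45 libraries, against 146.4, 296.9, 293.9 and 368.9 CPM in the HPB-ALL libraries. MME, the endopeptidase CD10 of early lymphoid cells, had 0, 0, 0.0288 and 0 CPM in the KARPAS-45 libraries, against 231.5, 329.4, 295.6 and 498.3 CPM in the HPB-ALL libraries. Each was expressed in all 4 HPB-ALL libraries and at or near 0 in all of KARPAS-45. Receptor and immunoglobulin segments and genes without an ordinary symbol were left out of the ranking. Beside these and TLX3, the first 12 by fold then held PLEKHG1 (125.8 CPM in HPB-ALL), FAM111B (118.9 CPM in HPB-ALL), BEX3 (98.4 CPM in HPB-ALL) and SCOC (86.6 CPM in HPB-ALL). WDFY3 (81.4 CPM in HPB-ALL), the potassium channel gene KCNA3 (75.7 CPM in HPB-ALL), DTX3 (71.1 CPM in HPB-ALL) and ZSCAN12 (67 CPM in HPB-ALL) were the others, and these 8 held 0 counts in KARPAS-45.

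The promoters of 6 genes high in one line and at or near 0 in the other are printed below, since DNA methylation, a mark that can silence a start, falls on CpG. Methylation was not measured in these libraries. Each sequence runs 5′ to 3′ from 250 bases before the start of transcription to 50 after it, from RefSeq on build GRCh38.p14, with each CpG (a C followed by a G, which reads the same on both strands) in capitals. TLX3 (chr5:171308998-171309297, + strand), DOCK1 (chr10:126905178-126905477, + strand), CR2 (chr1:207454078-207454377, + strand) and the interleukin 7 receptor gene IL7R (chr5:35856641-35856940, + strand) were on in HPB-ALL and at or near 0 in KARPAS-45. MEIS1 (chr2:66434875-66435174, + strand) and SKIDA1 (chr10:21525633-21525932, - strand), described below, were on in KARPAS-45 and under 0.4 CPM in every HPB-ALL library.
TLX3: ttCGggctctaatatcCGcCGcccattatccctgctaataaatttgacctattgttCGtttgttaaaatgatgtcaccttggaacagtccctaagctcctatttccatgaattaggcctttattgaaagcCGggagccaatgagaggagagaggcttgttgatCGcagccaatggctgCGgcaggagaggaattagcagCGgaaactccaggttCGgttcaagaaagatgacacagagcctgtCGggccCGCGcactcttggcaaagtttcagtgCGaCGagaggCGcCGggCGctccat
DOCK1: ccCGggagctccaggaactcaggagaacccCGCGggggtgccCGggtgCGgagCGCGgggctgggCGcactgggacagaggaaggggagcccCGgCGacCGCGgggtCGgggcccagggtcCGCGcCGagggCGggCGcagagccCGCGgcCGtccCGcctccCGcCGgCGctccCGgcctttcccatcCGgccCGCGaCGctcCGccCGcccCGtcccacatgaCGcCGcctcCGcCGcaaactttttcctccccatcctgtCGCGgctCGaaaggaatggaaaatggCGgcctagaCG
CR2: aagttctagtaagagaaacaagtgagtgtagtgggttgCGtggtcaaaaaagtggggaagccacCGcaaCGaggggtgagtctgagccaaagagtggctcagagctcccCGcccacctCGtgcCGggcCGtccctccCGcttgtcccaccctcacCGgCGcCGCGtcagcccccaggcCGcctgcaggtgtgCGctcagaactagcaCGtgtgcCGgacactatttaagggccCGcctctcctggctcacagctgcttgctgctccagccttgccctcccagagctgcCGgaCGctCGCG
IL7R: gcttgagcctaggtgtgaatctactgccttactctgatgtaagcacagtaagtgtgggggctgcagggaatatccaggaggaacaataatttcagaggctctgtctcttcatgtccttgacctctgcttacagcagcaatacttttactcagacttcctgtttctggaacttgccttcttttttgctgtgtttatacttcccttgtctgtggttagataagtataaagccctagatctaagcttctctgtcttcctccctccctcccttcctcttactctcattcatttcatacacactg
MEIS1: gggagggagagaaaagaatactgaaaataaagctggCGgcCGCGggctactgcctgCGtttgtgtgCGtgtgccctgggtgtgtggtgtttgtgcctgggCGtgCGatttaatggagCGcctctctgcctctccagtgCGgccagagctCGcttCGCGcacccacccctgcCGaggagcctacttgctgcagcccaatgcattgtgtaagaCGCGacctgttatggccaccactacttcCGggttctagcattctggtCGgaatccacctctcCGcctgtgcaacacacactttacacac
SKIDA1: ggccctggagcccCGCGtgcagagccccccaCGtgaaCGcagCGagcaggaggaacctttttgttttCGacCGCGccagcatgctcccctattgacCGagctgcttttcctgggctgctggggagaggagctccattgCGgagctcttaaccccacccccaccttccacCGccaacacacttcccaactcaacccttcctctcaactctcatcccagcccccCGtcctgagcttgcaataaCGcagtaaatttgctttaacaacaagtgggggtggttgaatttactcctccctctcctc
DOCK1 holds 42 CpG in this window, CR2 21, MEIS1 18, TLX3 17, SKIDA1 13 and IL7R 0. Over all 35116 promoters of the RefSeq table the median was 14. Among the 142 genes on in KARPAS-45 and silent in HPB-ALL, 107 had a promoter there, with a median of 32 CpG in the CpG-richest start of each gene. Among the 209 genes silent in KARPAS-45, 155 had one, with a median of 25, and the 6665 genes with a promoter and 10 CPM or more in both lines had a median of 29. At most 5 CpG were found in 2.80% of the genes silent in HPB-ALL, 10.3% of those silent in KARPAS-45 and 1.38% of those on in both. These counts describe the sequences and were not tested.

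Some silent genes were neighbours. Runs were 2 or more adjacent genes with at least 5 CPM in one line and at most 3 counts in each library of the other. There were 29 silent in KARPAS-45 and 18 silent in HPB-ALL. Genes were adjacent when no other tested gene started between them. Some runs are overlapping genes, such as SCOC with its antisense gene SCOC-AS1. How many runs to expect by chance was not worked out. On chromosome 1 a run of 6 was silent in KARPAS-45: the glycolysis regulator PFKFB2 (15.7 CPM in HPB-ALL), the deubiquitinase YOD1 (51.0), C4BPB (5.59) and the complement regulators CD55 (65.6), CR2 (276.5) and CR1 (37.6). On chromosome 7 the paraoxonase genes PON1 and PON2 held 0 counts in KARPAS-45, against 53.4 and 54.1 CPM in HPB-ALL. DHX32 lay beside DOCK1 on chromosome 10, SC5D beside SORL1 on chromosome 11, and TCEAL9 beside BEX3 on chromosome X. In HPB-ALL the silent runs included XK with CYBB on chromosome X, PAXX with ABCA2 and EGFL7 with AGPAT2 and DIPK1B on chromosome 9, and PRDM16 with its divergent transcript on chromosome 1. In the other 4 lines PON1, PON2, DOCK1 and DHX32 averaged at most 0.175 CPM, so HPB-ALL alone expressed them. SC5D averaged 28.3 to 65.6 CPM in those lines and PAXX 36 to 79.2, so each was missing from 1 line only. Other runs varied between lines. A deletion and silenced expression cannot be told apart in counts.

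QKI itself was low in KARPAS-45. It had 6.18, 7.74, 6.04 and 6.86 CPM in the KARPAS-45 libraries, against 109.5, 156.2, 142.9 and 140.0 CPM in the HPB-ALL libraries. Every KARPAS-45 library lay below every HPB-ALL library, and the mean was 20.4-fold lower (log2 fold change -4.35, SE 0.13, adjusted p = 4.61e-18). QKI belongs to the STAR family, whose members bind RNA through a shared domain. KHDRBS1 (SAM68), a family member that regulates splicing, had 693.1, 701.7, 597.0 and 638.6 CPM in the KARPAS-45 libraries, against 113.9, 126.7, 146.7 and 161.0 CPM in the HPB-ALL libraries. It went the other way from QKI, again with no overlap (log2 fold change 2.26, SE 0.14, adjusted p = 1.75e-13). SF1, the branch-point binding protein of the spliceosome, averaged 592.7 ± 29.3 CPM in KARPAS-45 and 392.9 ± 33.1 in HPB-ALL (log2 fold change 0.59, SE 0.11, adjusted p = 2.04e-05). KHDRBS3 averaged under 0.2 CPM in both lines, and KHDRBS2 held 0 counts in all 8 libraries.

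Of 53 splicing regulators tested, 38 were called higher in KARPAS-45 and 11 lower. By the stricter rule 21 of 53 members tested (39.6%) were at least 2-fold higher in KARPAS-45 and 5 (9.43%) at least 2-fold lower, with a median log2 fold change of 0.82. MBNL1, a muscleblind protein that controls exon choice, had 1916.8, 1785.3, 1678.3 and 1711.6 CPM in the KARPAS-45 libraries, against 153.5, 186.8, 189.1 and 162.4 CPM in the HPB-ALL libraries. KARPAS-45 lay above HPB-ALL in every library (log2 fold change 3.36, SE 0.12, adjusted p = 1.34e-17). Its paralogs were higher too: MBNL3 averaged 268.3 ± 13.6 CPM in KARPAS-45 and 65.7 ± 9.16 in HPB-ALL, and MBNL2 32.3 ± 1.01 CPM in KARPAS-45 and 0 counts in HPB-ALL, at least 577.8-fold higher. PTBP1, which represses exons at pyrimidine tracts, had 998.6, 1100.4, 1101.4 and 955.9 CPM in the KARPAS-45 libraries, against 242.3, 237.7, 263.9 and 195.6 CPM in the HPB-ALL libraries. Those groups did not overlap either (log2 fold change 2.15, SE 0.14, adjusted p = 1.63e-12). HNRNPLL, which directs CD45 splicing in T cells, averaged 143.2 ± 9.23 CPM in KARPAS-45 and 41.4 ± 7.96 in HPB-ALL. CELF2, a regulator of exons in activated T cells, averaged 434.2 ± 12.8 CPM in KARPAS-45 and 124.5 ± 25 in HPB-ALL. Lower in KARPAS-45 were SRSF8, an SR protein, with 0 counts in KARPAS-45 and 62.8 ± 16.6 CPM in HPB-ALL, and RBM38, an RNA-binding protein, with 120.2 ± 8.62 CPM in KARPAS-45 and 386.7 ± 60.2 in HPB-ALL. ESRP1, an epithelial splicing factor, was carried by 1 library, with 0.0759, 0.0143, 0.072 and 0.046 CPM in the KARPAS-45 libraries, against 0.606, 0.636, 0.552 and 31.8 CPM in the HPB-ALL libraries. Without HPB-ALL library 4 its log2 fold change was -3.47 (adjusted p = 0.0247), against -7.28 with it. The list moves with the length and GC trend: the offset fit gave 16 of 53 higher and 7 lower, median 0.47.

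**Figure D3:**
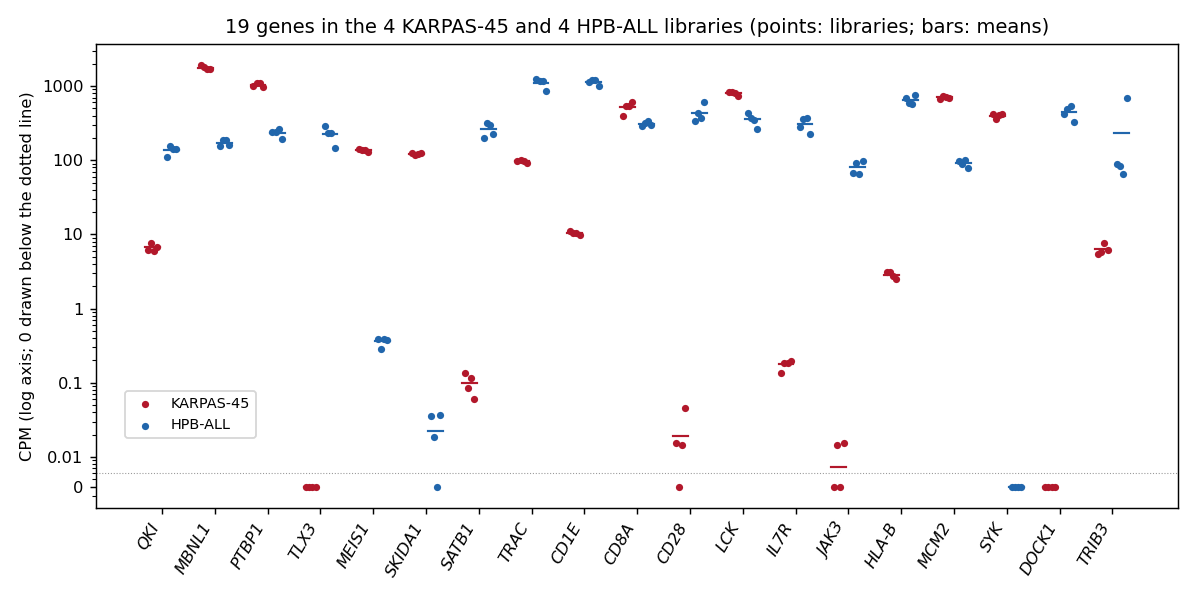
CPM of 19 genes (log axis) in the 4 KARPAS-45 libraries (red) and the 4 HPB-ALL libraries (blue), each point a library and each bar the mean of 4; points below the dotted line are at 0. QKI, TLX3, SATB1, CD28, IL7R and DOCK1 lie lower in KARPAS-45, MBNL1, PTBP1, MEIS1, SKIDA1, MCM2 and SYK higher, and TRIB3 has 1 HPB-ALL library, at 693.0 CPM, far above the other 3.

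Of the transcription factors that drive T-ALL subtypes, 1 of 19 members tested (5.26%) were at least 2-fold higher in KARPAS-45 and 10 (52.6%) at least 2-fold lower, with a median log2 fold change of -1.03. With offsets the list had 2 of 19 higher and 9 lower, median -0.53. LYL1, a factor of immature T-ALL, averaged 0.0333 ± 0.0219 CPM in KARPAS-45 and 12.9 ± 3.01 in HPB-ALL (log2 fold change -8.50, adjusted p = 1.56e-18). HHEX, which LMO2 switches on in mouse T-ALL, averaged 0.00741 ± 0.00856 CPM in KARPAS-45 and 1.56 ± 0.408 in HPB-ALL. TAL1, TLX1, MEF2C and LMO2 averaged under 0.5 CPM in both lines. MYB, which thymocytes need, averaged 493.3 ± 16.7 CPM in KARPAS-45 and 336.8 ± 49.5 in HPB-ALL (log2 fold change 0.55, SE 0.16, adjusted p = 0.00364), with an adjusted p of 0.09 in the offset fit.

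The HOXA genes, which leukaemias with KMT2A fusions commonly express, were nearly silent in KARPAS-45. Of the cluster, 1 of 17 members tested (5.88%) were at least 2-fold higher in KARPAS-45 and 9 (52.9%) at least 2-fold lower, with a median log2 fold change of -5.02. Its summed level was 0.691 to 0.859 CPM in KARPAS-45 and 7.98 to 12.1 CPM in HPB-ALL. HOXA9 held 0 counts in all 8 libraries. HOXA5 had 0, 0, 0.0144 and 0.0153 CPM in the KARPAS-45 libraries, against 3.99, 4.4, 3.77 and 2.81 CPM in the HPB-ALL libraries, a low level in HPB-ALL too.

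Of other genes tied to KMT2A fusions elsewhere, 7 of 24 members tested (29.2%) were at least 2-fold higher in KARPAS-45 and 9 (37.5%) at least 2-fold lower, with a median log2 fold change of 0.33. With offsets they had 6 of 24 higher and 9 lower, median -0.13. MEIS1, the homeobox partner of HOX proteins, had 143.7, 136.4, 138.0 and 129.4 CPM in the KARPAS-45 libraries, against 0.392, 0.281, 0.394 and 0.383 CPM in the HPB-ALL libraries. No HPB-ALL library reached 0.4 CPM of MEIS1 (log2 fold change 8.55, SE 0.19, adjusted p = 7.94e-16). SKIDA1 had 126.9, 118.3, 121.7 and 123.7 CPM in the KARPAS-45 libraries, against 0.0356, 0.0187, 0 and 0.0365 CPM in the HPB-ALL libraries (log2 fold change 12.23, SE 0.39, adjusted p = 8.7e-19). BMI1, a Polycomb gene of stem cell renewal, averaged 403.0 ± 48.6 CPM in KARPAS-45 and 55.5 ± 4.35 in HPB-ALL (log2 fold change 2.86, SE 0.11, adjusted p = 3.29e-17). RUNX1, a factor of blood stem cells, averaged 355.4 ± 12.7 CPM in KARPAS-45 and 80.4 ± 7.16 in HPB-ALL, and the E protein TCF4 85 ± 3.26 CPM in KARPAS-45 and 13.8 ± 2.6 in HPB-ALL, both called higher. KMT2A itself had 59.9, 47.6, 54.3 and 60.4 CPM in the KARPAS-45 libraries, against 143.5, 208.0, 194.5 and 222.4 CPM in the HPB-ALL libraries. It was lower in KARPAS-45 (log2 fold change -1.79, SE 0.14, adjusted p = 1.54e-11). Its fusion partner FOXO4 averaged 37.1 ± 1.92 CPM in KARPAS-45 and 22 ± 4.17 in HPB-ALL (log2 fold change 0.75, SE 0.16, adjusted p = 0.000217). A total per gene does not separate fused from normal transcripts. SATB1, a chromatin organiser of thymocytes, had 0.137, 0.0857, 0.115 and 0.0614 CPM in the KARPAS-45 libraries, against 196.6, 321.2, 300.6 and 222.5 CPM in the HPB-ALL libraries. It was all but absent from KARPAS-45 (log2 fold change -11.32, SE 0.23, adjusted p = 3.93e-22). PBX3, which binds DNA with MEIS1, averaged 46 ± 0.473 CPM in KARPAS-45 and 82.4 ± 9.4 in HPB-ALL (log2 fold change -0.84, adjusted p = 1.4e-05).

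In the TCR complex and its proximal signalling, 8 of 35 members tested (22.9%) were at least 2-fold higher in KARPAS-45 and 12 (34.3%) at least 2-fold lower, with a median log2 fold change of -0.39. CD28, the co-stimulatory receptor, had 0.0152, 0, 0.0144 and 0.046 CPM in the KARPAS-45 libraries, against 342.4, 426.3, 368.4 and 607.1 CPM in the HPB-ALL libraries. No KARPAS-45 library reached 0.1 CPM of it (adjusted p = 4.16e-17). CD3D averaged 142.9 ± 5.4 CPM in KARPAS-45 and 481.8 ± 191.3 in HPB-ALL (log2 fold change -1.75, SE 0.22, adjusted p = 9.7e-08), with -0.71 (adjusted p = 5.12e-05) in the offset fit. PAG1, an adaptor that restrains LCK, had 0.0607, 0.0571, 0.0863 and 0.0153 CPM in the KARPAS-45 libraries, against 10.1, 13.6, 9.45 and 93.6 CPM in the HPB-ALL libraries. Library 4 was the highest, and without it the log2 fold change was -7.58 (adjusted p = 9.63e-14), against -9.10 with it. CD6, a co-receptor that binds ALCAM, averaged 51.2 ± 3.11 CPM in KARPAS-45 and 309.7 ± 48.4 in HPB-ALL, and the adaptor TRAT1 11.4 ± 0.985 CPM in KARPAS-45 and 115.0 ± 9.82 in HPB-ALL. Both were lower in KARPAS-45. THEMIS, a regulator of thymocyte selection, was higher with 155.6 ± 15.2 CPM in KARPAS-45 and 16.5 ± 4.4 in HPB-ALL (log2 fold change 3.24, SE 0.19, adjusted p = 1.34e-13). PTPRC (CD45), the phosphatase that primes LCK, averaged 600.2 ± 25.7 CPM in KARPAS-45 and 108.6 ± 65.6 in HPB-ALL, higher too. ZAP70, the kinase that acts after LCK, averaged 180.9 ± 18.3 CPM in KARPAS-45 and 319.5 ± 21 in HPB-ALL (log2 fold change -0.82, adjusted p = 1.13e-06).

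Of surface antigens of thymocyte stages and genes of TCR rearrangement, 5 of 30 members tested (16.7%) were at least 2-fold higher in KARPAS-45 and 18 (60%) at least 2-fold lower, with a median log2 fold change of -2.61. CD1E, a CD1 molecule of cortical thymocytes, had 11.2, 10.6, 10.5 and 9.85 CPM in the KARPAS-45 libraries, against 1117.8, 1205.3, 1221.0 and 992.4 CPM in the HPB-ALL libraries. The groups did not overlap (log2 fold change -6.75, SE 0.45, adjusted p = 1.03e-11). CD1B averaged 6.04 ± 0.203 CPM in KARPAS-45 and 692.1 ± 61.8 in HPB-ALL and CD1A 40.2 ± 2.54 CPM in KARPAS-45 and 349.8 ± 106.2 in HPB-ALL, in the same direction. CD2, an adhesion molecule of all T cells, had 1.62, 2.36, 2.53 and 2.22 CPM in the KARPAS-45 libraries, against 139.1, 118.5, 116.5 and 71.6 CPM in the HPB-ALL libraries. KARPAS-45 was far the lower in CD2 (log2 fold change -5.67, SE 0.36, adjusted p = 4.61e-13). CD5, which dampens TCR signals, averaged 18.9 ± 1.17 CPM in KARPAS-45 and 263.9 ± 37.2 in HPB-ALL, and the co-receptor CD4 60.3 ± 3.03 CPM in KARPAS-45 and 473.2 ± 74 in HPB-ALL. The other co-receptor was not low. CD8A had 398.3, 545.2, 538.4 and 603.4 CPM in the KARPAS-45 libraries, against 286.5, 317.5, 337.2 and 301.8 CPM in the HPB-ALL libraries, and KARPAS-45 was higher in every library (log2 fold change 0.75, SE 0.15, adjusted p = 5.96e-05). CD8B averaged 625.0 ± 26.6 CPM in KARPAS-45 and 386.4 ± 33.4 in HPB-ALL (log2 fold change 0.69, SE 0.20, adjusted p = 0.00281).

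Of the enzymes that rearrange TCR genes, DNTT, the terminal transferase, averaged 0.199 ± 0.0137 CPM in KARPAS-45 and 78.3 ± 27.1 in HPB-ALL (log2 fold change -8.60, adjusted p = 1.48e-12). RAG1 averaged 25.9 ± 1.62 CPM in KARPAS-45 and 54.5 ± 18.7 in HPB-ALL (log2 fold change -1.07, adjusted p = 0.000105). The pre-TCR chain PTCRA averaged 46.8 ± 5.8 CPM in KARPAS-45 and 61 ± 9.48 in HPB-ALL and was not called, and its log2 fold change was -0.38, against 0.47 (adjusted p = 0.132) in the offset fit. CD44, a hyaluronan receptor, averaged 0.0699 ± 0.0171 CPM in KARPAS-45 and 56.4 ± 3.1 in HPB-ALL, lower in KARPAS-45. CCR9, which guides thymocytes, had 112.5, 107.9, 116.8 and 104.2 CPM in the KARPAS-45 libraries, against 1.82, 3.24, 3.14 and 1.31 CPM in the HPB-ALL libraries. It was one of the 5 members of the list at least 2-fold higher there (log2 fold change 5.54, SE 0.45, adjusted p = 5.14e-11). KIT, the stem cell factor receptor, averaged 8.68 ± 0.441 CPM in KARPAS-45 and 0.00961 ± 0.0111 in HPB-ALL, and SPN (CD43), a surface mucin of T cells, 498.1 ± 38.2 CPM in KARPAS-45 and 152.2 ± 20.5 in HPB-ALL, both higher too.

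T-lineage transcription factors split both ways: 15 of 41 members tested (36.6%) were at least 2-fold higher in KARPAS-45 and 13 (31.7%) at least 2-fold lower, with a median log2 fold change of 0.38. RUNX3, a factor of CD8 T cells, had 38.2, 35.1, 36.9 and 33 CPM in the KARPAS-45 libraries, against 467.5, 395.8, 338.4 and 252.3 CPM in the HPB-ALL libraries. It was lower in KARPAS-45 in every library (log2 fold change -3.34, SE 0.15, adjusted p = 5.38e-16). LEF1, the partner of TCF7 in early T cells, averaged 285.5 ± 18.7 CPM in KARPAS-45 and 1225.0 ± 164.2 in HPB-ALL, and the Ikaros family factor IKZF3 11.1 ± 0.809 CPM in KARPAS-45 and 209.4 ± 36.6 in HPB-ALL, both lower. NFATC2, an effector of calcium signals, had 0 counts in KARPAS-45 and 47.4 ± 6.7 CPM in HPB-ALL. BCL11B, which commits precursors to the T lineage, was higher with 365.7 ± 12.6 CPM in KARPAS-45 and 106.0 ± 26.3 in HPB-ALL (log2 fold change 1.79, SE 0.20, adjusted p = 1.31e-08). TOX, needed for CD4 T cells, averaged 310.4 ± 21.1 CPM in KARPAS-45 and 59.2 ± 6.88 in HPB-ALL, and EGR1, an early gene of TCR signals, 78.3 ± 5.96 CPM in KARPAS-45 and 2.26 ± 0.441 in HPB-ALL, both higher. TCF7, an early T-cell factor, averaged 1308.1 ± 59.9 CPM in KARPAS-45 and 1943.5 ± 99.2 in HPB-ALL (log2 fold change -0.57, adjusted p = 0.0269). The adjusted p was 0.0542 without KARPAS-45 library 4 and 0.0567 without HPB-ALL library 2. GATA3, which early T cells need, averaged 117.3 ± 9.43 CPM in KARPAS-45 and 90.1 ± 7.75 in HPB-ALL and was not called.

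For genes of early T precursors, 6 of 23 members tested (26.1%) were at least 2-fold higher in KARPAS-45 and 12 (52.2%) at least 2-fold lower, with a median log2 fold change of -1.63. BAALC, a marker of immature leukaemia, had 0 counts in KARPAS-45 and 39.2 ± 2.61 CPM in HPB-ALL. CD244, a SLAM family receptor, averaged 0.0483 ± 0.0199 CPM in KARPAS-45 and 110.4 ± 5.7 in HPB-ALL. Both were lower in KARPAS-45. CEBPA, a myeloid factor, was higher with 9.18 ± 1.13 CPM in KARPAS-45 and 0.0183 ± 0.0252 in HPB-ALL. CD34, the stem-cell antigen, stayed under 0.2 CPM in every library.

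Of NOTCH receptors, ligands and target genes, 11 of 32 members tested (34.4%) were at least 2-fold higher in KARPAS-45 and 12 (37.5%) at least 2-fold lower, with a median log2 fold change of -0.55. NOTCH3 had 1099.9, 1107.4, 1088.9 and 985.3 CPM in the KARPAS-45 libraries, against 240.7, 369.9, 291.4 and 518.7 CPM in the HPB-ALL libraries, with no overlap (log2 fold change 1.59, SE 0.25, adjusted p = 3.47e-06). NOTCH1, the receptor most often mutated in T-ALL, averaged 885.9 ± 31.9 CPM in KARPAS-45 and 637.1 ± 105.2 in HPB-ALL (log2 fold change 0.48, SE 0.17, adjusted p = 0.0137), a call that ended without HPB-ALL library 1 (adjusted p = 0.0585) and in the offset fit (0.0934). Of the targets, NRARP, a feedback inhibitor, had 43.9, 66, 72.1 and 67.2 CPM in the KARPAS-45 libraries, against 3.21, 3.48, 3.12 and 1.11 CPM in the HPB-ALL libraries. KARPAS-45 was far the higher (log2 fold change 4.51, SE 0.29, adjusted p = 4.85e-11), with 5.26 (adjusted p = 5.82e-12) in the offset fit. HES1, a repressor downstream of NOTCH, averaged 41.8 ± 3.42 CPM in KARPAS-45 and 11.6 ± 1.52 in HPB-ALL (log2 fold change 1.85, SE 0.19, adjusted p = 3.02e-09), and HEYL 11.7 ± 1.23 CPM in KARPAS-45 and 0.00456 ± 0.00913 in HPB-ALL. The ligand JAG2 averaged 21.4 ± 1.71 CPM in KARPAS-45 and 0.00961 ± 0.0111 in HPB-ALL. HES4 went the other way, with 8.08, 9.22, 4.69 and 8.1 CPM in the KARPAS-45 libraries, against 187.1, 111.3, 127.1 and 222.6 CPM in the HPB-ALL libraries. It was lower in KARPAS-45 (log2 fold change -4.43, SE 0.45, adjusted p = 1.02e-08), and in the offset fit at -3.30 (adjusted p = 1.86e-06). DTX1, a modulator of NOTCH, averaged 123.3 ± 9.63 CPM in KARPAS-45 and 685.1 ± 39.6 in HPB-ALL (log2 fold change -2.47, SE 0.13, adjusted p = 2.27e-13), lower too, and CR2 and DTX3 stand in this list at 0 counts in KARPAS-45. MYC, which NOTCH1 drives in T-ALL, had 495.2, 497.7, 476.1 and 393.4 CPM in the KARPAS-45 libraries, against 359.8, 407.2, 402.4 and 106.7 CPM in the HPB-ALL libraries. It was not called (log2 fold change 0.55, adjusted p = 0.153), and HPB-ALL library 4 lay below the other 3. Without that library its log2 fold change was 0.26 (adjusted p = 0.436).

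In interleukin signalling, 8 of 33 members tested (24.2%) were at least 2-fold higher in KARPAS-45 and 16 (48.5%) at least 2-fold lower, with a median log2 fold change of -0.56. IL7R, the receptor chain for the survival factor interleukin 7, had 0.137, 0.186, 0.187 and 0.199 CPM in the KARPAS-45 libraries, against 280.0, 354.7, 368.1 and 228.6 CPM in the HPB-ALL libraries. KARPAS-45 stayed under 0.2 CPM in every library (log2 fold change -10.74, SE 0.44, adjusted p = 9.51e-17). JAK3, the kinase bound to the common gamma chain, had 0, 0.0143, 0 and 0.0153 CPM in the KARPAS-45 libraries, against 67.5, 91.9, 65.6 and 97.5 CPM in the HPB-ALL libraries, with 2 counts over the 4 KARPAS-45 libraries (adjusted p = 1.94e-20). The gamma chain itself, IL2RG, had 1.17, 2.04, 6.86 and 1.43 CPM in the KARPAS-45 libraries, against 95, 70.9, 68.4 and 75.8 CPM in the HPB-ALL libraries (log2 fold change -4.75, SE 0.36, adjusted p = 1.74e-11). KARPAS-45 library 3 was the highest of its 4, and without it the log2 fold change was -5.65. IL4R averaged 0.161 ± 0.0599 CPM in KARPAS-45 and 28.7 ± 3.89 in HPB-ALL, lower as well. The inhibitors SOCS3 (14 ± 0.999 CPM in KARPAS-45 and 0.0321 ± 0.0234 in HPB-ALL) and SOCS2 (13.3 ± 0.746 CPM in KARPAS-45 and 0.27 ± 0.104 in HPB-ALL) were higher in KARPAS-45. So was STAT3 (286.8 ± 16 CPM in KARPAS-45 and 89.9 ± 16.2 in HPB-ALL), which carries cytokine signals to the nucleus.

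In the PI3K and RAS pathways, 13 of 31 members tested (41.9%) were at least 2-fold higher in KARPAS-45 and 5 (16.1%) at least 2-fold lower, with a median log2 fold change of 0.52. The fit with offsets gave 7 of 31 higher and 5 lower, median 0.24. PIK3CD, the catalytic subunit of lymphocytes, averaged 211.3 ± 23.1 CPM in KARPAS-45 and 28.4 ± 4.28 in HPB-ALL (log2 fold change 2.90, SE 0.12, adjusted p = 1.74e-16), higher in KARPAS-45. PIK3IP1, an inhibitor of PI3K, was lower with 0.965 ± 0.187 CPM in KARPAS-45 and 24.4 ± 6.26 in HPB-ALL. AKT1, the kinase PI3K activates, averaged 251.6 ± 21.1 CPM in KARPAS-45 and 323.3 ± 36.5 in HPB-ALL (log2 fold change -0.36, adjusted p = 0.00463). MTOR averaged 169.3 ± 5.12 CPM in KARPAS-45 and 150.6 ± 19.3 in HPB-ALL and was not called.

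Among cell cycle inhibitors and genes of cell cycle arrest and death, 12 of 30 members tested (40%) were at least 2-fold higher in KARPAS-45 and 6 (20%) at least 2-fold lower, with a median log2 fold change of 0.59. CDKN1A (p21), which stops the cell cycle, averaged 1.38 ± 0.112 CPM in KARPAS-45 and 20 ± 4.93 in HPB-ALL and was lower (log2 fold change -3.85, SE 0.33, adjusted p = 1.61e-10). TNFRSF10B, a death receptor, averaged 22.8 ± 0.585 CPM in KARPAS-45 and 0.107 ± 0.0317 in HPB-ALL, and ZMAT3 82.3 ± 4.3 CPM in KARPAS-45 and 17.1 ± 3.49 in HPB-ALL, both higher. CDKN2A, a locus of cell cycle inhibitors that T-ALL often deletes, had 15.3, 16.9, 12.8 and 14.7 CPM in the KARPAS-45 libraries, against 200.2, 116.3, 131.4 and 107.1 CPM in the HPB-ALL libraries. It was lower in KARPAS-45 but present (log2 fold change -3.22, SE 0.21, adjusted p = 8.07e-13), with -2.45 (adjusted p = 4.51e-13) in the offset fit. CDKN2B held 0 counts in all 8 libraries. FAS, a death receptor, averaged 20 ± 1.5 CPM in KARPAS-45 and 21.2 ± 10.8 in HPB-ALL and was not called.

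In the BCL2 family, which sets the threshold of apoptosis, 4 of 16 members tested (25%) were at least 2-fold higher in KARPAS-45 and 7 (43.8%) at least 2-fold lower, with a median log2 fold change of -0.56. In the offset fit the family had 4 of 16 higher and 4 lower, median -0.12. BCL2L11 (BIM), a trigger of apoptosis, had 73.3, 80.3, 90.4 and 86.2 CPM in the KARPAS-45 libraries, against 1.41, 3.48, 2.5 and 2.99 CPM in the HPB-ALL libraries. KARPAS-45 was far the higher (log2 fold change 4.99, SE 0.25, adjusted p = 3.77e-15). BBC3 (PUMA), another trigger, went the other way with 0.334, 0.214, 0.216 and 0.0767 CPM in the KARPAS-45 libraries, against 3.71, 4.38, 3.18 and 23.5 CPM in the HPB-ALL libraries. HPB-ALL library 4 was the highest, and without it the log2 fold change was -4.14 (adjusted p = 0.000129), against -5.35 with it. Of the protective genes, BCL2L1 averaged 142.2 ± 7.41 CPM in KARPAS-45 and 83 ± 10.4 in HPB-ALL (log2 fold change 0.78, adjusted p = 0.000133). BCL2 itself averaged 91.1 ± 4.62 CPM in KARPAS-45 and 63.2 ± 8.96 in HPB-ALL (log2 fold change 0.53, adjusted p = 0.000824). MCL1 averaged 293.6 ± 17.3 CPM in KARPAS-45 and 230.9 ± 37.8 in HPB-ALL (log2 fold change 0.35, adjusted p = 0.00917). The offset fit did not call BCL2 or MCL1 (adjusted p = 0.234 and 0.226), and MCL1 had 0.0649 without HPB-ALL library 1. BAK1, a pore-forming effector, averaged 55.5 ± 7.37 CPM in KARPAS-45 and 65 ± 9.49 in HPB-ALL and was not called.

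The glucocorticoid receptor gene NR3C1 averaged 96.7 ± 4.88 CPM in KARPAS-45 and 81.8 ± 28.9 in HPB-ALL and was not called (log2 fold change 0.24, adjusted p = 0.337), and without HPB-ALL library 4 it was 0.49 (adjusted p = 0.0427). In the list of the receptor and genes tied to its response, 6 of 16 members tested (37.5%) were at least 2-fold higher in KARPAS-45 and 8 (50%) at least 2-fold lower. Their median log2 fold change was -1.02. TSC22D3 (GILZ), a mediator of glucocorticoid effects, had 0.0304, 0.0571, 0.0144 and 0.0767 CPM in the KARPAS-45 libraries, against 13.8, 17.6, 15.9 and 77.1 CPM in the HPB-ALL libraries. HPB-ALL library 4 was the highest (log2 fold change -9.38, SE 1.19, adjusted p = 1.28e-07), and without it the log2 fold change was -8.40 (adjusted p = 1.78e-07). SGK1, a kinase glucocorticoids induce, averaged 0.731 ± 0.11 CPM in KARPAS-45 and 36.6 ± 8.44 in HPB-ALL, and BTG1 22 ± 4.45 CPM in KARPAS-45 and 149.9 ± 75.1 in HPB-ALL, both lower. FKBP5, a co-chaperone of the receptor, was higher with 639.6 ± 17.3 CPM in KARPAS-45 and 200.3 ± 22.5 in HPB-ALL, as was the chaperone HSP90AA1 with 3601.4 ± 301.7 CPM in KARPAS-45 and 531.5 ± 110.9 in HPB-ALL.

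Of genes that handle nucleoside, thiopurine and asparagine drugs, 6 of 25 members tested (24%) were at least 2-fold higher in KARPAS-45 and 6 (24%) at least 2-fold lower, with a median log2 fold change of 0.23. RRM1, a subunit of ribonucleotide reductase, averaged 685.6 ± 25.8 CPM in KARPAS-45 and 69.6 ± 15.7 in HPB-ALL and was higher in KARPAS-45. SLC29A1, which imports nucleosides, was lower with 271.8 ± 44.3 CPM in KARPAS-45 and 623.7 ± 56.9 in HPB-ALL.

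Of MHC class I genes, which present peptides to CD8 T cells, 1 of 18 members tested (5.56%) were at least 2-fold higher in KARPAS-45 and 9 (50%) at least 2-fold lower, with a median log2 fold change of -0.99. None was at least 2-fold higher and 9 of 18 were lower both in the offset fit and without HPB-ALL library 4. HLA-B had 3.07, 3.07, 2.73 and 2.47 CPM in the KARPAS-45 libraries, against 688.6, 590.0, 578.5 and 756.4 CPM in the HPB-ALL libraries. The groups were far apart (log2 fold change -7.85, SE 0.29, adjusted p = 1.16e-17). HLA-C averaged 24.7 ± 1.46 CPM in KARPAS-45 and 259.8 ± 49.1 in HPB-ALL and HLA-F 0 counts in KARPAS-45 and 27.2 ± 8.87 CPM in HPB-ALL, both lower. HLA genes are polymorphic and alike, so reads of alleles unlike the reference may be lost or misplaced, and the sizes of these differences are uncertain. B2M, the shared light chain, averaged 692.8 ± 77.4 CPM in KARPAS-45 and 751.4 ± 168.1 in HPB-ALL and was not called (adjusted p = 0.475). TAP2, which carries peptides to the chains, averaged 27.9 ± 0.895 CPM in KARPAS-45 and 76.2 ± 9.21 in HPB-ALL, lower. In the MHC class II list, 0 of 9 members tested were at least 2-fold higher in KARPAS-45 and 5 (55.6%) at least 2-fold lower. The median log2 fold change was -1.01, and the offset fit gave 4 of 9 lower, median -0.51. Members averaging at least 1 CPM numbered 4 in KARPAS-45 and 6 in HPB-ALL. HLA-DRA held 0 counts in all 8 libraries, CIITA, the activator of the class, averaged under 0.03 CPM in each line, and CD74, the invariant chain, 0.0337 ± 0.0152 CPM in KARPAS-45 and 1.09 ± 0.5 in HPB-ALL.

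Of interferon response genes, 7 of 45 members tested (15.6%) were at least 2-fold higher in KARPAS-45 and 22 (48.9%) at least 2-fold lower, with a median log2 fold change of -0.97. IFI6 averaged 0.675 ± 0.155 CPM in KARPAS-45 and 29 ± 12.5 in HPB-ALL (log2 fold change -5.43, SE 0.29, adjusted p = 1.84e-14), with -4.38 (adjusted p = 3e-15) in the offset fit. IFITM1, which blocks virus entry, averaged 4.04 ± 0.411 CPM in KARPAS-45 and 112.0 ± 24.8 in HPB-ALL (log2 fold change -4.79, SE 0.18, adjusted p = 2.96e-17), with -3.80 (adjusted p = 4.1e-17) in the offset fit. IFIH1 (MDA5), a sensor of viral RNA, averaged 0.0036 ± 0.0072 CPM in KARPAS-45 and 17.3 ± 1.82 in HPB-ALL, with 1 count over the 4 KARPAS-45 libraries. Some members were higher in KARPAS-45, among them MX1, an antiviral GTPase, with 57.2 ± 0.753 CPM in KARPAS-45 and 9.67 ± 2.93 in HPB-ALL, and USP18, which dampens the response, with 93.7 ± 13.2 CPM in KARPAS-45 and 10.6 ± 1.34 in HPB-ALL. STAT2 averaged 38.2 ± 2.94 CPM in KARPAS-45 and 41.1 ± 21.4 in HPB-ALL and was not called.

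Of DNA replication genes, 23 of 40 members tested (57.5%) were at least 2-fold higher in KARPAS-45 and 1 (2.5%) at least 2-fold lower, with a median log2 fold change of 1.18. The offset fit gave 22 of 40 higher and 1 lower, median 1.25. MCM2, a subunit of the replicative helicase, had 671.4, 726.4, 709.4 and 698.1 CPM in the KARPAS-45 libraries, against 98.4, 88.2, 99.5 and 79 CPM in the HPB-ALL libraries. The groups lay apart in every library (log2 fold change 2.94, SE 0.16, adjusted p = 1.52e-14). The other subunits moved with it, from 2.52 on the log2 scale for MCM7 to 2.94 for MCM6. UHRF1, which brings a methyltransferase to replicating DNA, averaged 1446.6 ± 67.2 CPM in KARPAS-45 and 108.1 ± 15 in HPB-ALL (log2 fold change 3.74, SE 0.20, adjusted p = 2.94e-14). CCNE1, cyclin E1, went the other way with 13.7 ± 1.12 CPM in KARPAS-45 and 37.1 ± 6.11 in HPB-ALL.

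Of genes of G2 and mitosis, 23 of 40 members tested (57.5%) were at least 2-fold higher in KARPAS-45 and 2 (5%) at least 2-fold lower, with a median log2 fold change of 1.39. The offset fit gave 25 of 40 higher and 2 lower, median 1.28. TOP2A, topoisomerase II alpha, had 1551.3, 1560.2, 1487.8 and 1615.7 CPM in the KARPAS-45 libraries, against 169.3, 208.0, 205.5 and 332.8 CPM in the HPB-ALL libraries (log2 fold change 2.76, SE 0.29, adjusted p = 7e-09). TPX2, a spindle assembly factor, averaged 569.7 ± 35.4 CPM in KARPAS-45 and 98.4 ± 9.91 in HPB-ALL, and the checkpoint kinase BUB1 483.4 ± 9.38 CPM in KARPAS-45 and 90.8 ± 3.59 in HPB-ALL. UBE2S, which extends ubiquitin chains in mitosis, was lower with 115.6 ± 17.4 CPM in KARPAS-45 and 437.1 ± 178.4 in HPB-ALL. CENPF, a kinetochore protein, averaged 403.0 ± 52.4 CPM in KARPAS-45 and 291.2 ± 29.5 in HPB-ALL and was not called. Growth rate and cell cycle phase were not measured.

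Of MYC partners and ribosome biogenesis genes, 13 of 32 members tested (40.6%) were at least 2-fold higher in KARPAS-45 and 4 (12.5%) at least 2-fold lower, with a median log2 fold change of 0.46. HPB-ALL library 4 stood apart here, with a summed level of 2825.3 CPM over the list. The sum was 8133.6 to 8582.9 CPM in KARPAS-45 and reached 5316.6 CPM in HPB-ALL. Without that library the list had 9 of 32 higher and 3 lower, median 0.20. NCL, nucleolin, had 2042.6, 2032.1, 1850.2 and 2189.2 CPM in the KARPAS-45 libraries, against 333.1, 259.7, 289.1 and 163.2 CPM in the HPB-ALL libraries. The groups did not overlap (log2 fold change 2.96, SE 0.22, adjusted p = 1.43e-11), and without library 4 the log2 fold change was 2.79 (adjusted p = 2.94e-11). MXI1, an antagonist of MYC, was lower in KARPAS-45 with 8.91 ± 0.275 CPM in KARPAS-45 and 117.4 ± 24.4 in HPB-ALL. ODC1, the first enzyme of polyamine synthesis, averaged 646.1 ± 39.6 CPM in KARPAS-45 and 566.3 ± 207.6 in HPB-ALL and was not called.

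Of fatty acid synthesis genes, at the same amount of serum, 11 of 21 members tested (52.4%) were at least 2-fold higher in KARPAS-45 and 4 (19%) at least 2-fold lower, with a median log2 fold change of 1.25. The offset fit gave 10 of 21 higher and 3 lower, median 0.77. FASN, fatty acid synthase, had 1227.6, 1277.3, 1300.9 and 1179.2 CPM in the KARPAS-45 libraries, against 179.0, 225.3, 215.8 and 126.3 CPM in the HPB-ALL libraries. The groups did not overlap (log2 fold change 2.74, SE 0.25, adjusted p = 3.21e-10). SCD, the desaturase that makes oleate, averaged 1650.5 ± 33.9 CPM in KARPAS-45 and 417.7 ± 90.3 in HPB-ALL, and ACLY, which supplies acetyl-CoA, 698.8 ± 17.6 CPM in KARPAS-45 and 90.4 ± 13.7 in HPB-ALL. ACSL5 and ACSL1, which activate fatty acids, were lower. ACSL5 averaged 0.11 ± 0.0535 CPM in KARPAS-45 and 49.5 ± 5.7 in HPB-ALL and ACSL1 0.753 ± 0.126 CPM in KARPAS-45 and 33.3 ± 6.07 in HPB-ALL.

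Of cholesterol genes, 15 of 29 members tested (51.7%) were at least 2-fold higher in KARPAS-45 and 6 (20.7%) at least 2-fold lower. The offset fit gave 15 of 29 higher and 6 lower, median 1.09. FDFT1, which makes squalene, averaged 784.8 ± 81 CPM in KARPAS-45 and 206.9 ± 2.68 in HPB-ALL (log2 fold change 1.92, SE 0.15, adjusted p = 2.66e-11). Some steps were low or absent in KARPAS-45. SC5D, the sterol desaturase, had 0 counts in all 4 KARPAS-45 libraries, against 33.6, 47.2, 41.6 and 46.6 CPM in the HPB-ALL libraries, at least 951.5-fold lower. CYP51A1, the lanosterol demethylase, had 0 counts in KARPAS-45 and 4 ± 0.873 CPM in HPB-ALL. SQLE, squalene epoxidase, averaged 10.6 ± 1.07 CPM in KARPAS-45 and 124.9 ± 19.5 in HPB-ALL (log2 fold change -3.56, SE 0.21, adjusted p = 8.02e-14). SREBF2, the regulator of the pathway, averaged 145.5 ± 10.9 CPM in KARPAS-45 and 446.5 ± 143.4 in HPB-ALL (log2 fold change -1.62, SE 0.18, adjusted p = 9.94e-09). MVK, mevalonate kinase, averaged 29.4 ± 2.4 CPM in KARPAS-45 and 24.9 ± 3.81 in HPB-ALL and was not called.

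TRIB3, DDIT3 and SLC7A11, of the integrated stress response list, moved with 1 HPB-ALL library. TRIB3, a pseudokinase induced by the integrated stress response, had 5.39, 5.88, 7.73 and 6.24 CPM in the KARPAS-45 libraries, against 88.4, 83.8, 65.3 and 693.0 CPM in the HPB-ALL libraries. Library 4 of HPB-ALL stood far above the other 3, and without it the log2 fold change was -3.64 (adjusted p = 0.000116), against -5.20 with it. DDIT3 (CHOP), a factor of stress-induced death, had 3.6, 3.33, 2.79 and 2.79 CPM in the KARPAS-45 libraries, against 51.7, 29.3, 32.4 and 113.8 CPM in the HPB-ALL libraries. Its log2 fold change was -4.18 (adjusted p = 6.69e-07), -3.59 (adjusted p = 1.82e-06) without library 4 and -3.45 (adjusted p = 2.7e-05) in the offset fit. Over the list, 8 of 24 members tested (33.3%) were at least 2-fold higher in KARPAS-45 and 7 (29.2%) at least 2-fold lower, with a median log2 fold change of -0.11. Without library 4 it had 8 of 24 higher and 6 lower, median 0.11, and the offset fit gave 5 of 24 higher and 7 lower, median -0.23. PSAT1, an enzyme of serine synthesis that stands in this list, had 138.9, 154.0, 137.9 and 130.5 CPM in the KARPAS-45 libraries, against 0.285, 0.412, 0.493 and 0.639 CPM in the HPB-ALL libraries (log2 fold change 8.26, SE 0.35, adjusted p = 2.22e-16). PHGDH, which opens that pathway, averaged 418.8 ± 37.3 CPM in KARPAS-45 and 55 ± 14.6 in HPB-ALL (log2 fold change 2.93, SE 0.29, adjusted p = 2.34e-09). SLC7A11, a cystine transporter, averaged 94.3 ± 4.75 CPM in KARPAS-45 and 16.2 ± 14 in HPB-ALL, with a log2 fold change of 2.54, and 3.36 (adjusted p = 0.000255) without library 4. ATF4, the factor of this response, averaged 490.0 ± 32.4 CPM in KARPAS-45 and 747.1 ± 164.3 in HPB-ALL (log2 fold change -0.61, adjusted p = 0.0277). The call ended without HPB-ALL library 1 (adjusted p = 0.0986), without KARPAS-45 library 4 (0.0601) and in the offset fit (0.24). SLC7A5, a leucine transporter, averaged 687.0 ± 54.1 CPM in KARPAS-45 and 770.4 ± 283.8 in HPB-ALL and was not called.

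In the endoplasmic reticulum, 6 of 22 members tested (27.3%) were at least 2-fold higher in KARPAS-45 and 2 (9.09%) at least 2-fold lower, with a median log2 fold change of 0.56. Without HPB-ALL library 4 it was 8 of 22 higher and 1 lower, median 0.61. The offset fit gave 4 of 22 higher (18.2%, against 24.1% over all genes in that fit) and 3 lower, median 0.35. XBP1, a factor of the unfolded protein response, had 61.6, 71.6, 69.4 and 61.3 CPM in the KARPAS-45 libraries, against 0.0178, 0, 0.0197 and 0.0183 CPM in the HPB-ALL libraries, with 3 counts over the 4 HPB-ALL libraries. HSPA5 (BiP), the main chaperone there, averaged 542.0 ± 81.1 CPM in KARPAS-45 and 211.2 ± 67.5 in HPB-ALL (log2 fold change 1.36, SE 0.40, adjusted p = 0.0033). CANX, calnexin, averaged 1725.1 ± 106.7 CPM in KARPAS-45 and 309.7 ± 49.6 in HPB-ALL, higher too. HSP90B1, another chaperone, averaged 538.6 ± 33.1 CPM in KARPAS-45 and 430.8 ± 70.7 in HPB-ALL and was not called.

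Of glycolysis and hypoxia genes, 13 of 33 members tested (39.4%) were at least 2-fold higher in KARPAS-45 and 9 (27.3%) at least 2-fold lower, with a median log2 fold change of 0.73. PGK1, a glycolytic kinase, averaged 837.7 ± 105.0 CPM in KARPAS-45 and 193.5 ± 65.9 in HPB-ALL, LDHA, which makes lactate, 1451.3 ± 77.9 CPM in KARPAS-45 and 411.8 ± 147.4 in HPB-ALL, and HK2, a hexokinase, 102.2 ± 7.56 CPM in KARPAS-45 and 25.2 ± 11.5 in HPB-ALL. All were higher in KARPAS-45. VEGFA, a growth factor that hypoxia induces, had 11.6, 11.5, 11.7 and 10.9 CPM in the KARPAS-45 libraries, against 146.9, 243.6, 158.7 and 313.5 CPM in the HPB-ALL libraries. It was lower in every KARPAS-45 library (log2 fold change -4.24, SE 0.43, adjusted p = 2.48e-09). GPI, a glycolytic isomerase, averaged 126.1 ± 24.9 CPM in KARPAS-45 and 116.5 ± 28.4 in HPB-ALL and was not called.

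Of integrins and of chemokine and sphingosine receptors, 13 of 41 members tested (31.7%) were at least 2-fold higher in KARPAS-45 and 14 (34.1%) at least 2-fold lower, with a median log2 fold change of 0.30. ITGA6, a laminin receptor chain, averaged 217.6 ± 5.49 CPM in KARPAS-45 and 20 ± 7.26 in HPB-ALL, and ITGAL, a chain of LFA-1, 228.3 ± 10.1 CPM in KARPAS-45 and 33 ± 7.48 in HPB-ALL, both higher in KARPAS-45. ITGA4, a chain of VLA-4, averaged 151.8 ± 1.6 CPM in KARPAS-45 and 493.9 ± 88.7 in HPB-ALL and CCR7, a homing receptor, 1.56 ± 0.0884 CPM in KARPAS-45 and 33.2 ± 8.06 in HPB-ALL, both lower.

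Among regulators of DNA methylation and chromatin, 13 of 32 members tested (40.6%) were at least 2-fold higher in KARPAS-45 and 3 (9.38%) at least 2-fold lower, with a median log2 fold change of 0.36. TET2, which oxidises methylated cytosine, had 0 counts in all 4 KARPAS-45 libraries, against 41.4, 61, 60.5 and 79.1 CPM in the HPB-ALL libraries, at least 1363.2-fold lower in KARPAS-45. TET1, of the same family, averaged 117.4 ± 7.09 CPM in KARPAS-45 and 22.5 ± 3.61 in HPB-ALL (log2 fold change 2.38, SE 0.13, adjusted p = 2.67e-14). DNMT1, the maintenance methyltransferase, averaged 611.8 ± 25.2 CPM in KARPAS-45 and 183.4 ± 15.9 in HPB-ALL, and PHF6, a tumour suppressor of T-ALL, 231.2 ± 15.1 CPM in KARPAS-45 and 32.8 ± 5.1 in HPB-ALL, both higher. EZH2, the Polycomb methyltransferase, averaged 384.3 ± 21.9 CPM in KARPAS-45 and 176.9 ± 10.9 in HPB-ALL and its paralog EZH1 28.6 ± 2.24 CPM in KARPAS-45 and 80.4 ± 6.14 in HPB-ALL, in opposite directions. Of imprinted genes, which are expressed from the allele of 1 parent, 3 of 16 members tested (18.8%) were at least 2-fold higher in KARPAS-45 and 7 (43.8%) at least 2-fold lower, with a median log2 fold change of -0.52. MEST had 125.3, 151.3, 150.2 and 129.5 CPM in the KARPAS-45 libraries, against 0, 0, 0.0986 and 0.0183 CPM in the HPB-ALL libraries, all but absent from HPB-ALL (adjusted p = 1.43e-19). Of 45 cancer-testis genes 9 passed the filter on low counts. PRAME was among them, with 4.64 ± 0.437 CPM in KARPAS-45 and 12.4 ± 1.75 in HPB-ALL.

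Markers of other cell types were low, with exceptions in each line. The 16 B-cell markers summed to 95.0 to 102.7 CPM in KARPAS-45 and 231.2 to 590.2 CPM in HPB-ALL. Most of the KARPAS-45 sum was BLK. In HPB-ALL the sum was mostly immunoglobulin and pre-B receptor genes. IGKC had 0 counts in all 4 KARPAS-45 libraries, against 180.9, 103.2, 123.7 and 85.1 CPM in the HPB-ALL libraries. IGLL1 averaged 0.975 ± 0.375 CPM in KARPAS-45 and 194.2 ± 118.1 in HPB-ALL and CD79A 0.532 ± 0.139 CPM in KARPAS-45 and 42.6 ± 5.84 in HPB-ALL. MS4A1 and PAX5, markers of B cells, stayed under 0.2 CPM in every library of both lines. The 20 myeloid markers summed to 15.9 to 17.2 CPM in KARPAS-45 and 15.5 to 34.9 CPM in HPB-ALL, with MPO, ELANE and CD33 under 0.2 CPM in every library. The 18 NK-cell and cytotoxic markers summed to 26.9 to 33.5 CPM in KARPAS-45 and 84.4 to 109.3 CPM in HPB-ALL, with NCAM1 under 0.1 CPM in every library. NKG7, a granule protein, averaged 1.12 ± 0.267 CPM in KARPAS-45 and 44.7 ± 4.35 in HPB-ALL. The 18 erythroid and megakaryocyte markers summed to 1966.7 to 2313.7 CPM in KARPAS-45 and 885.1 to 1303.1 CPM in HPB-ALL. Nearly all of that was TFRC, the transferrin receptor of dividing cells, with 2154.5 ± 161.8 CPM in KARPAS-45 and 1076.7 ± 218.4 in HPB-ALL. TFRC was called higher, but not in the offset fit (log2 fold change 0.55, adjusted p = 0.113). The 14 fibroblast and epithelial markers summed to 16.9 to 20.6 CPM in KARPAS-45 and 6.37 to 12.3 CPM in HPB-ALL. EPCAM averaged 10.8 ± 1.5 CPM in KARPAS-45 and 0 counts in HPB-ALL. The part of other cells in the differences above was not tested.

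Of the 13 mitochondrially encoded messenger RNAs, 12 were at least 2-fold lower in KARPAS-45 and none higher, with a median log2 fold change of -2.24. In the offset fit 5 were, with a median of -0.97. MT-CO3, a subunit of cytochrome oxidase, averaged 400.6 ± 126.7 CPM in KARPAS-45 and 4363.6 ± 1323.8 in HPB-ALL, with a log2 fold change of -3.45, and -2.40 (adjusted p = 2.71e-11) in the offset fit.

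**Figure D4:**
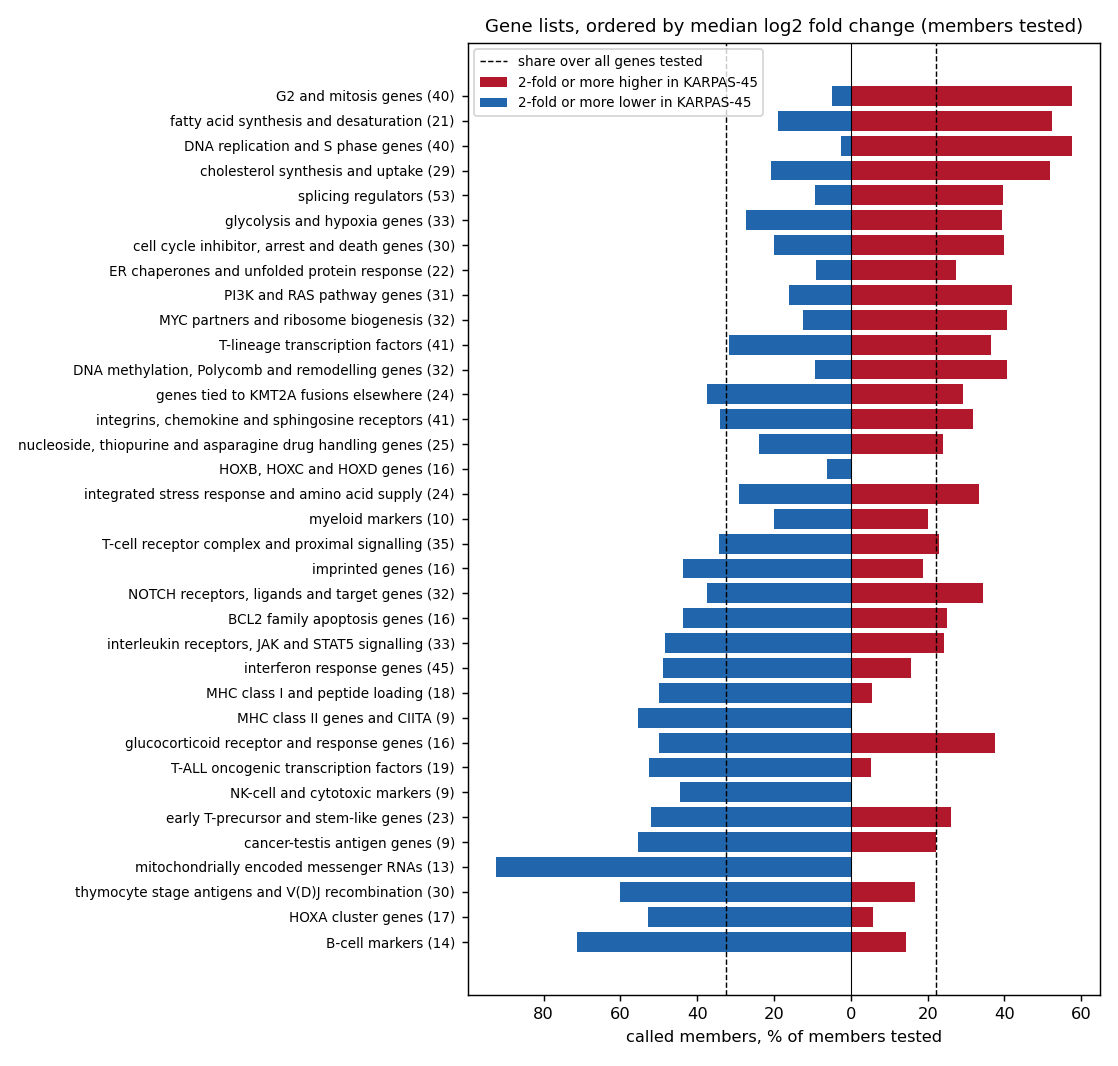
Share of the tested members of 35 gene lists (members tested in parentheses) called and at least 2-fold higher (red, right) or lower (blue, left) in KARPAS-45, ordered by median log2 fold change. Dashed lines mark 22.1% and 32.6%, the shares over all genes tested; S phase and G2 and mitosis genes reach past the right line, and B-cell markers, HOXA genes and thymocyte antigens past the left one.

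Set against the other 4 lines, the QKI level of HPB-ALL lay among those of most lines. QKI averaged 129.6 ± 11.5 CPM in ALL-SIL, 88.0 ± 5.54 in DND-41 and 161.6 ± 4.24 in TALL-1 (SD, n = 4 each), and held 0 counts in LOUCY. KARPAS-45 and LOUCY were the lines poor in QKI. TLX3 was also expressed in DND-41, at 121.5 CPM on average.

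Over the chromosomes, protein-coding genes with at least 1 CPM in a line numbered 11704, with a median log2 fold change of 0.22. The highest median was 0.80, for chromosome 3, where 286 of 666 genes were at least 2-fold higher in KARPAS-45 and 117 lower. Chromosome 21 followed with 0.62, and 42 of 118 genes higher. The lowest was -0.20, for chromosome 19, where 153 of 903 genes were higher and 251 lower. These medians come from the fit without offsets, and the part of the length and GC trends in them was not tested. Copy number was not measured.

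**Figure D5:**
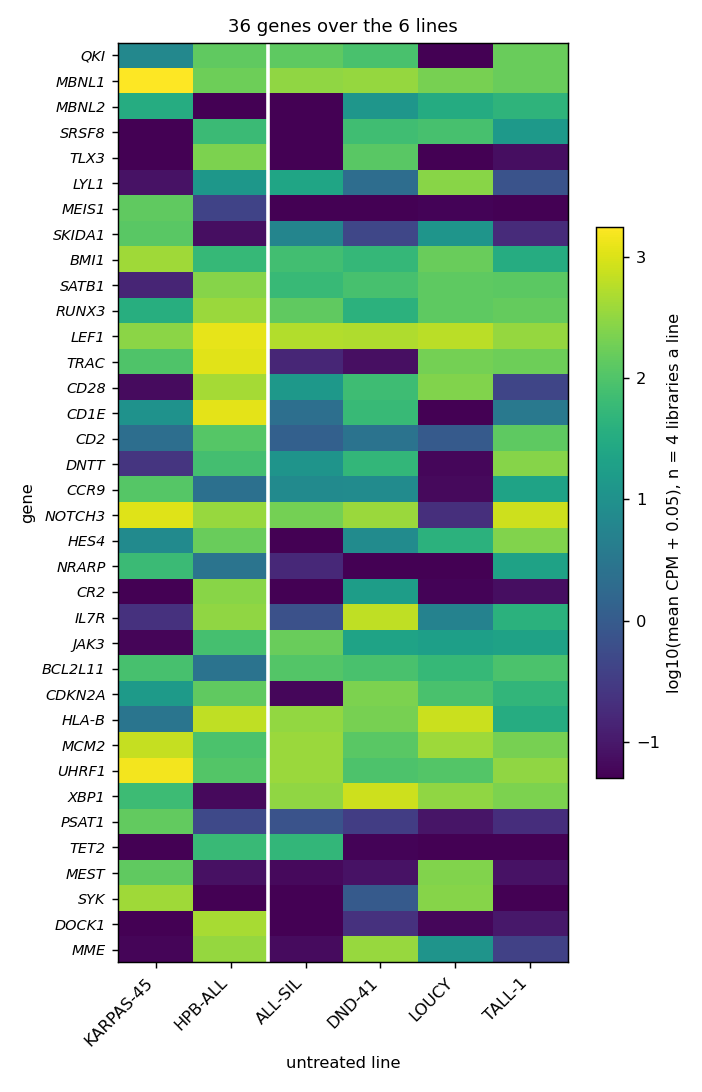
Mean level, as log10(CPM + 0.05), of 36 genes in KARPAS-45, HPB-ALL and, right of the white line, the other 4 untreated lines (n = 4 libraries a line). TLX3 is bright in HPB-ALL and dark in KARPAS-45, MEIS1 and SYK are bright in KARPAS-45 and dark in HPB-ALL, and QKI is dark in LOUCY and dim in KARPAS-45.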

How the data were processed

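The authors deposited a table of read counts per gene for the untreated lines. Reads were trimmed with Trimmomatic 0.39 and aligned with STAR 2.7.11b to GRCh38, per the submitters' processing notes. Which program counted them, on which annotation and whether by strand, is not stated in the sources used here. RNA was polyadenylated, per the labels.

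Columns were assigned to lines by name. Counts were fitted with edgeR 4.0.16 in R 4.3.3 (TMM scaling, the default low-count filter over 24 libraries, quasi-likelihood F-test) with line as the only term, and p-values were adjusted over the 20348 genes that passed. The fit was tested on simulated counts. Alternatives were RLE scaling, no filter, a filter or fit on the 8 libraries, a replicate block, DESeq2 1.42.0, limma 3.58.1 (voom), glmTreat against a 2-fold change, each library left out, and offsets for transcript length and GC content. Same-numbered replicates did not visibly deviate together (correlations -0.148, -0.091, -0.064 and 0.119, against -0.188 to 0.239 for unlike numbers). The main fit therefore did not pair them. With 4 libraries a line this check is weak and cannot exclude pairing.

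The comparison, the gene lists and the naming rule were chosen with earlier results of these data known. Named were QKI, the 12 largest changes in each direction (at least 5 CPM, no overlap, ordinary symbols), preset key members of each list, up to 8 called and 3 uncalled members a list, receptor segments of at least 10 CPM, and runs of silent neighbours. The text gives part of these, and genes whose call changed with 1 library or alternative were mostly left out of it after their values were seen. Some genes are not reported here. Transcript length and GC content came from GENCODE 29 and covered 94.6% of the genes tested. Floors of 3 counts and the scatter among replicates cover counting and library error only.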

Additional observations from a re-analysis of the deposited data

Results flagged for a closer look

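Among 356 groups of 4 libraries (the named genes with a mean of at least 1 CPM), 22 had a library whose gap to the nearest of the others, divided by the range of the group, passed Dixon's 95% critical value. Chance flags about 1 in 20 groups. Genes whose call changed with 1 library were mostly left out beforehand, so the flagged share cannot be set against that rate. In 12 of the 22 flagged groups the library was HPB-ALL library 4, high in 8 and low in 4.

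High in HPB-ALL library 4 were 8 genes. TRIB3 had 693.0 CPM there and 65.3 to 88.4 in the other libraries of the line. BBC3, a trigger of apoptosis, had 23.5 CPM, against 3.18 to 4.38. TSC22D3 had 77.1 CPM, against 13.8 to 17.6, and the cystine transporter SLC7A11 37.1, against 8 to 10.7. PAG1 had 93.6 CPM, against 9.45 to 13.6, and ESRP1 31.8, against 0.552 to 0.636. RRM1 had 93.1 CPM, against 60.2 to 62.6, and CD55 90.5, against 55.9 to 59.0.

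Other genes were low in that library. MYC had 106.7 CPM there and 359.8 to 407.2 in the others. CD1A had 190.5 CPM, against 397.7 to 406.4, NRARP 1.11, against 3.12 to 3.48, and USP18 8.64, against 11.1 to 11.5.

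In the rest of HPB-ALL, library 3 was low for IL4R (22.9 CPM, against 29.9 to 31.2) and high for MCM6 (138.6 CPM, against 120.4 to 121.1). Library 1 was high for MT-CO3 (6331.4 CPM, against 3486.6 to 3921.6).

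In KARPAS-45, library 3 was high for IL2RG (6.86 CPM, against 1.17 to 2.04). Library 4 was low for NOTCH3 (985.3 CPM, against 1088.9 to 1107.4), SPN (441.2 CPM, against 511.2 to 521.9) and SOCS3 (12.5 CPM, against 14.4 to 14.6). Library 2 was low for SYK (356.3 CPM, against 410.9 to 419.8) and IFITM1 (3.43 CPM, against 4.17 to 4.29), and library 1 for XK (85.5 CPM, against 90.1 to 90.5). The cause of these deviations was not tested.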

How the results depend on the processing

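The count of genes called changed by less than 1.5 times under every alternative run but 1. Tested with glmTreat against a fold of 2, 3612 genes were called higher in KARPAS-45 and 5488 lower, against 6986 and 8515 in the test against no change, a stricter test by construction. With each library left out in turn, 6803 to 7126 genes were called higher in KARPAS-45 and 8423 to 8610 lower, and 4439 to 4628 were at least 2-fold higher and 6586 to 6877 lower. The log2 fold change of QKI ran from -4.46 to -4.28 with each library left out and was -4.87 with length and GC offsets, and QKI was called under every alternative run. The fit of the 8 libraries with a replicate block called 6638 genes higher and 7393 lower (log2 fold change of QKI -4.35). Whether the replicate numbers pair the libraries is not known. This pair of lines had the most genes at least 2-fold apart under both other settings run, 11133 with RLE scaling and 14367 without a filter. The pairs were not counted with the offsets. With the offsets, of 10404 genes at least 2-fold apart that both fits hold, 8601 were so in the same direction, and 97 of 14675 called genes were called in the opposite direction. Of the 235 named genes tested, 7 lost their call under an alternative other than glmTreat and 21 under glmTreat, and none reversed a called direction. Genes whose call changed were mostly left out of the text after their values were seen. These counts therefore do not measure how often calls change. Of the named genes given as not called, 6 were called under an alternative. In the fit of the 8 libraries alone CENPF had an adjusted p of 0.00577, GATA3 0.00617 and PTCRA 0.0209, and each was also called there with the replicate block (0.013, 0.0191 and 0.0486). MYC was called only with that block (0.0282). Without a filter on low counts CENPF (0.0458) and GATA3 (0.0415) were called, NR3C1 (0.0427) without HPB-ALL library 4, and TRGC2 (0.00127) with the offsets. The offsets were chosen after the trends were seen. Depth limits genes under a floor of 3 counts, where only bounds are given.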
